A study of Homo sapiens with 6 samples.

Results

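The metallothioneins and the genes of zinc homeostasis were described in the bulk RNA sequencing of WT and S6K1-/- human embryonic stem cells (hESCs). The set held 10 genes of the 61155 in the count table, found by their symbols. MT1E, MT1F, MT1G, MT1H, MT1X and MT2A encode metallothioneins, and MTF1, SLC30A1, SLC30A10 and SLC39A10 encode a zinc sensor and zinc or manganese transporters. The members were chosen on values of the same comparison of S6K1-/- with WT, so their differences are given as a description. Which of them passed the threshold of the fit over all genes is stated once and supports nothing.

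All 6 libraries came from H7, an established hESC line kept without feeder cells on Matrigel in TeSR-E8 medium. The WT group held 3 libraries of unedited H7 cells. The S6K1-/- group held 3 libraries of a single clone, obtained with CRISPR/Cas9 guides against exons 9 and 11 of RPS6KB1, the gene for the ribosomal protein S6 kinase S6K1 that acts downstream of mTORC1. The labels call the genotype a knockdown and give every sample a time of week 5, whereas the extraction protocol and the methods describe a knockout and undifferentiated cells. With 1 clone, the loss of S6K1 and any other property of the clone cannot be told apart. No source used here says whether the 3 libraries of a group came from separate cultures, so p-values measure the spread between these libraries, which may be technical.

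Metallothioneins are small cytosolic proteins rich in cysteine that bind zinc and copper ions, and they buffer free zinc and protect cells from cadmium. When free zinc increases, the transcription factor MTF1 binds it, moves onto metal response elements in promoters, and switches on metallothionein genes and the zinc exporter SLC30A1 (ZnT1). SLC30A (ZnT) proteins move zinc out of the cytosol and SLC39A (ZIP) proteins move it in, so the levels of these genes are often read as a picture of cellular zinc.

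The promoters of 4 members are shown because they hold the letters of the metal response element. RefSeq windows of 300 bases, 250 before and 50 after the start on GRCh38.p14, matched 7 of the 10 members. MT1E, MT1F and MT1G were not matched. The letters TGCACNC and TGCGCNC were searched on both strands, and overlapping matches were merged. The 250 bases before the start are printed 5' to 3' along the gene, with matches in capitals. The MT2A stretch lies at chr16:56608334-56608583 on the plus strand, that of MT1H at chr16:56669564-56669813 on the plus strand, that of MT1X at chr16:56682220-56682469 on the plus strand, and that of SLC30A1 at chr1:211579162-211579411 on the minus strand.
MT2A: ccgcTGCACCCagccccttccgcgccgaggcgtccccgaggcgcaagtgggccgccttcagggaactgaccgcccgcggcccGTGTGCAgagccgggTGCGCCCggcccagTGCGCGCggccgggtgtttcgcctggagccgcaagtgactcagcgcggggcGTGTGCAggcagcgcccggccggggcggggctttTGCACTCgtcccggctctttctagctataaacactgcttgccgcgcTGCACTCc
MT1H: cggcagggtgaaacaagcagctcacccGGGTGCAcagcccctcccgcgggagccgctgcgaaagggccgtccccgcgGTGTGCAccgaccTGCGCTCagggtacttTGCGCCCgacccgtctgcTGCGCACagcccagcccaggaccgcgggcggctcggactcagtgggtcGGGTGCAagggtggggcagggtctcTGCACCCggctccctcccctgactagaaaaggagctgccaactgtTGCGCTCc
MT1X: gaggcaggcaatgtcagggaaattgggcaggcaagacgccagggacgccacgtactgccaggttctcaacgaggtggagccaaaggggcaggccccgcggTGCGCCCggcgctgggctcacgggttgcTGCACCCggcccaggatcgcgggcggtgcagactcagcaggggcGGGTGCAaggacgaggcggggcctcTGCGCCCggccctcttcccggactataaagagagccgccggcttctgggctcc
SLC30A1: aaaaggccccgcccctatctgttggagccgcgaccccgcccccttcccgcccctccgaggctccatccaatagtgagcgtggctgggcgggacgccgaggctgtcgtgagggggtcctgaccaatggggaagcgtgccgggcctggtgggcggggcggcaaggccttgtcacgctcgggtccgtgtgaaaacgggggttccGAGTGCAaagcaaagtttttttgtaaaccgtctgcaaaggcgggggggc

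The windows of MT2A and MT1H each held 8 matches, that of MT1X held 4 and that of SLC30A1 held 2. For MT2A and SLC30A1, 1 match lies after the start and is not printed. The windows of MTF1, SLC30A10 and SLC39A10 held none of these letters. The RefSeq window of SLC39A10, with its upstream bases at chr2:195656708-195656957, lies within the GENCODE gene and not at the 5' end of that gene, and that of SLC30A10 rests on a start 80 bases from the GENCODE 5' end. Of 35116 RefSeq promoters of the same length, 29.6% held at least 1 match, 7.51% at least 2 and 0.339% at least 4. With TGCACNC alone, the counts were 6 for MT2A, 4 for MT1H, 2 for MT1X and 2 for SLC30A1, and 1.13% of all promoters held at least 2. MT1H and MT1X both had matches that begin 78 and 53 bases before the start, and MT2A had one that begins 54 bases before it. A match is a description of letters and not of binding by MTF1, which was not measured.

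The 16 annotated genes of the metallothionein cluster lie within 119 kb of chromosome 16, from 56565073 to 56684196 in GENCODE 44 on GRCh38. Along the chromosome they run MT4, MT3, MT2A, MT1L, MT1E, MT1M, MT1JP, MT1A, MT1DP, MT1CP, MT1B, MT1F, MT1G, MT1H, MT1IP and MT1X. MT1G is on the minus strand and the other members of the cluster listed here are on the plus strand. The zinc genes lie elsewhere. MTF1 is at chr1:37809574-37859592, SLC30A1 at chr1:211571568-211579161 and SLC30A10 at chr1:219685427-219959018, all on the minus strand, and SLC39A10 is at chr2:195575977-195737702 on the plus strand.

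The 6 metallothionein members encode proteins of 61 residues, or 62 for MT1G, with 20 cysteines each and no aromatic residue. Over their 15 pairs, protein identity ran from 83.6% between MT1F and MT1X to 93.5% between MT1G and MT2A, and identity of the coding sequence ran from 88.5% to 94.1%. Near-identical genes can share reads. The share of 75-base windows of the principal transcript that also occurred at another locus was 0 for MT2A and MT1F, 0.794% for MT1E, 6.55% for MT1G, 8.18% for MT1X and 10.8% for MT1H. A long noncoding RNA on the same strand overlaps MT1X, which brought its share to 36.1%. The counts of MT1H, MT1X and MT1G are therefore less certain than those of MT2A.

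Between 21896698 and 24473013 counts were assigned to genes in each library, and mitochondrial genes took 8.54% to 9.74% of them. RPS6KB1 had 831, 791 and 777 counts in WT and 464, 464 and 438 in S6K1-/-. Its level fell from 33.3 ± 0.994 to 19.8 ± 0.371 CPM (counts per 1e6 counts, mean ± SD, n = 3 in each group), a log2 fold change of -0.75 (SE 0.057, adjusted p = 2.52e-07, edgeR's quasi-likelihood test). The pluripotency markers were abundant in all libraries, with summed levels of 6082 to 6214 CPM in WT and 5759 to 5779 CPM in S6K1-/-, and of the 10, PRDM14 was called higher and DNMT3B lower. The summed level of 10 mesenchyme markers ran from 621 to 638 CPM in WT and from 539 to 558 CPM in S6K1-/-, with 2 of the 5 tested called lower and DCN at 0. Most of this sum was THY1, at 488 CPM in WT and 480 CPM in S6K1-/-, and 6 of the 10 had a mean under 1 CPM. The 2 called lower were COL1A1, from 80.2 to 23.2 CPM, and COL1A2, from 60.4 to 42.6 CPM. The summed level of 10 amnion and trophoblast markers ran from 20.7 to 22.5 CPM in WT and from 17.8 to 19.8 CPM in S6K1-/-, with HAND1 at 0. That of 10 endoderm and liver markers ran from 7.53 to 9.80 CPM in WT and from 3.86 to 4.68 CPM in S6K1-/-, with TTR at 0. That of 10 neuroectoderm markers ran from 455 to 474 CPM in WT and from 442 to 457 CPM in S6K1-/-. Most of it was NES, at 442 and 424 CPM, and 6 of the 10 had a mean under 1 CPM. PAX6 was called higher, from 4.47 to 7.58 CPM. SOX1 was higher, from 0.263 to 0.648 CPM, and FABP7 lower, from 1.90 to 0.789 CPM, and neither was called. The part of these markers in the values below was not tested, and in bulk samples fewer cells of a type and less RNA per cell cannot be told apart.

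Of the 10 members, 9 passed the filter on low counts, and SLC30A10 did not. A gene was called at an adjusted p under 0.001 over the 19521 genes tested. In that fit 774 genes (3.96%) were called, 278 (1.42%) higher and 496 (2.54%) lower in S6K1-/-. MT2A, MT1E, MT1G and MT1H were among those called higher, while MT1F, MT1X and the 3 tested zinc genes were not called, also at an adjusted p under 0.05. MT1G was not called when WT replicate 3, S6K1-/- replicate 1 or S6K1-/- replicate 3 was left out. Nothing is read from these counts, because the same comparison chose the members.

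MT2A, the main metallothionein of most human tissues, had the largest difference of the 10 genes. It had 672, 726 and 738 counts in WT and 1424, 1377 and 1384 counts in S6K1-/-. Every S6K1-/- library stood far above every WT library, and the libraries within each group lay close together. The level was 29.6 ± 2.09 CPM in WT and 60.6 ± 3.03 CPM in S6K1-/- (n = 3 in each group), which is a log2 fold change of 1.03 (SE 0.058) or 2.04 times the WT level. With each library left out in turn it stayed between 0.99 and 1.09.

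MT1E, a metallothionein of the MT1 subfamily that follows MT1L in the cluster, had 456, 525 and 425 counts in WT and 845, 793 and 866 counts in S6K1-/-. The groups did not overlap, and the lowest S6K1-/- library was well above the highest WT library. The level was 19.5 ± 1.66 CPM in WT and 36.3 ± 3.34 CPM in S6K1-/-, with a log2 fold change of 0.90 (SE 0.077).

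MT1G, on the opposite strand to the rest of the cluster, had 1069, 1462 and 1224 counts in WT and 2084, 1676 and 1883 counts in S6K1-/-. The groups did not overlap, but the second WT library and the second S6K1-/- library lay nearer to each other than the others. The level was 52.0 ± 7.80 CPM in WT and 81.8 ± 10.2 CPM in S6K1-/-, with a log2 fold change of 0.65 (SE 0.095). With each library left out in turn it lay between 0.55 and 0.76.

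MT1H, the neighbour of MT1G in the cluster, had 439, 492 and 444 counts in WT and 648, 710 and 633 counts in S6K1-/-. All S6K1-/- libraries were above all WT libraries, with little spread within a group. The level was 19.1 ± 0.992 CPM in WT and 28.8 ± 1.06 CPM in S6K1-/-, with a log2 fold change of 0.59 (SE 0.063).

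MT1F and MT1X behaved otherwise. MT1F had 363, 451 and 385 counts in WT and 497, 408 and 482 counts in S6K1-/-, and its groups overlapped because the second S6K1-/- library fell among the WT libraries. Its level was 16.6 ± 1.72 CPM in WT and 20.1 ± 2.71 CPM in S6K1-/-, with a log2 fold change of 0.27 (SE 0.097). MT1X had 118, 131 and 116 counts in WT and 85, 139 and 67 in S6K1-/-. S6K1-/- replicates 1 and 3 were below every WT library and replicate 2 was above them all. Its level was 5.06 ± 0.247 CPM in WT and 4.17 ± 1.44 CPM in S6K1-/-, with a log2 fold change of -0.27 (SE 0.179), and this value was -0.59 without S6K1-/- replicate 2, -0.17 without replicate 1 and -0.09 without replicate 3.

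**Figure D1:**
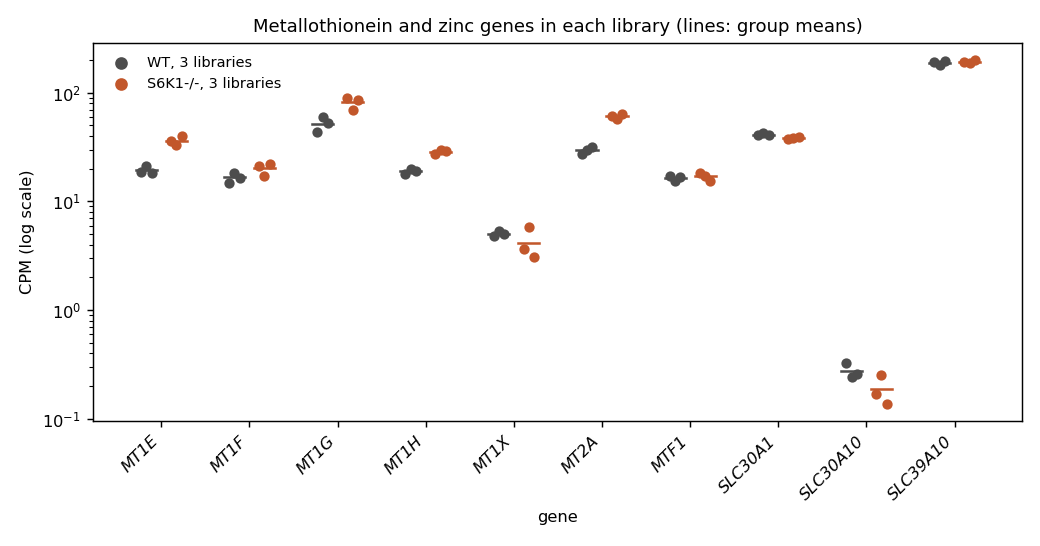
Level of each of the 10 genes in CPM on a log axis, with 1 point per library (WT in grey, S6K1-/- in orange) and a line at the group mean. MT2A, MT1E, MT1G and MT1H have all 3 S6K1-/- points above the WT points, MT1F and MT1X overlap, and MTF1 and SLC39A10 lie at the same height in both groups.

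Libraries of the groups did not overlap in CPM for 5 of the 9 tested members, against 30.7% of all genes tested, and every S6K1-/- library was above every WT library for 4 of them, against 14% of all genes. The fifth was SLC30A1, for which the S6K1-/- libraries were lower. The median log2 fold change of the 6 metallothioneins was 0.62 and that of all genes tested was -0.0024. Their summed level was 128, 154 and 143 CPM in WT and 238, 213 and 244 CPM in S6K1-/-, or 142 ± 13.1 and 232 ± 16.4 CPM, 1.63 times the WT level. Neither the median nor the sum supports anything beyond the choice of the genes.

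The share of each gene in the summed counts of the 6 metallothioneins was compared as a description. MT2A took 21.6%, 19.2% and 22.1% of these counts in WT and 25.5%, 27.0% and 26.0% in S6K1-/-. MT1F took 11.7 ± 0.184% in WT and 8.66 ± 0.578% in S6K1-/-. Neither gene had overlapping groups, with MT2A taking more and MT1F less in S6K1-/-. MT1X went from 3.58 ± 0.182% to 1.84 ± 0.780%, also without overlap. MT1E took 13.7 ± 0.942% in WT and 15.7 ± 0.588% in S6K1-/-, likewise without overlap. MT1G overlapped between the groups with 36.5 ± 2.16% in WT and 35.2 ± 2.25% in S6K1-/-, and MT1H overlapped with 13.5 ± 0.560% and 12.5 ± 1.25%. The differences of these shares moved by less than 0.1 percentage points when all metallothionein genes of the table formed the total. The shares of 1 library sum to 100%, so they do not vary independently, and they are shares of counts, not corrected for length.

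MTF1, the zinc-sensing transcription factor, had 413, 377 and 386 counts in WT and 425, 413 and 339 counts in S6K1-/-. The groups overlapped, and S6K1-/- replicate 3 lay among the lower WT values. Its level was 16.3 ± 0.858 CPM in WT and 16.97 ± 1.29 CPM in S6K1-/-, with a log2 fold change of 0.06 (SE 0.074), and it lay between 0.01 and 0.12 with a library left out. Metallothionein counts per MTF1 count were 8.74 ± 1.25 in WT and 13.7 ± 1.74 in S6K1-/-. The RNA level of MTF1 says nothing of its location or activity, which were not measured.

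SLC30A1, the zinc exporter of the plasma membrane that MTF1 controls along with the metallothioneins, had 985, 1046 and 949 counts in WT and 881, 911 and 856 counts in S6K1-/-. Scaled to depth, every S6K1-/- library was slightly below every WT library. Its level was 41.3 ± 1.11 CPM in WT and 38.3 ± 0.927 CPM in S6K1-/-, with a log2 fold change of -0.11 (SE 0.049). Its difference therefore had the opposite sign to those of MT2A, MT1E, MT1G and MT1H. Metallothionein counts per SLC30A1 count were 3.43 ± 0.238 in WT and 6.05 ± 0.393 in S6K1-/-.

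SLC30A10, a transporter that exports manganese, was near the limit of detection with 8, 6 and 6 counts in WT and 4, 6 and 3 counts in S6K1-/-. The groups touched at 6 counts. Without the filter on low counts its fitted log2 fold change was -0.55, which rests on at most 8 counts in a library. SLC39A10, a ZIP importer of zinc at the cell surface, was abundant with 4666, 4431 and 4579 counts in WT and 4516, 4480 and 4371 counts in S6K1-/-. Its groups overlapped, with 190 ± 8.62 CPM in WT and 193 ± 6.90 CPM in S6K1-/- and a log2 fold change of 0.03 (SE 0.044). That value turned to -0.01 without WT replicate 2. The 4 zinc genes together summed to 248 ± 8.40 CPM in WT and 249 ± 6.61 CPM in S6K1-/-.

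Levels of different genes were ranked per length, as CPM per kilobase of all annotated exons (RPKM). In WT the order was MT1G at 69.3 ± 10.4, MT2A at 32.4 ± 2.28, SLC39A10 at 27.4 ± 1.25, MT1H at 26.4 ± 1.372, MT1E at 18.5 ± 1.57, MT1F at 8.97 ± 0.927, SLC30A1 at 7.01 ± 0.188, MT1X at 2.93 ± 0.143, MTF1 at 2.04 ± 0.107 and SLC30A10 at 0.0301 RPKM. SLC39A10 and MT1H, next to each other in this order, did not differ beyond their spread. In S6K1-/- the order was MT1G at 109 ± 13.6, MT2A at 66.3 ± 3.32, MT1H at 39.8 ± 1.47, MT1E at 34.5 ± 3.18, SLC39A10 at 28.0 ± 0.998, MT1F at 10.9 ± 1.46, SLC30A1 at 6.50 ± 0.157, MT1X at 2.41 ± 0.836, MTF1 at 2.12 ± 0.161 and SLC30A10 at 0.0202 RPKM. Thus MT1H and MT1E stood above SLC39A10 in S6K1-/- and MT1E stood below it in WT, while MT1X and MTF1 overlapped in S6K1-/-. The order depends on the length used. Per kilobase of coding sequence, WT values were 280 for MT1G, 162 for MT2A, 106 for MT1E, 104 for MT1H, 90.8 for MT1F, 76.1 for SLC39A10, 27.6 for MT1X and 27.1 for SLC30A1, which put 5 metallothioneins above SLC39A10.

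The metallothionein transcripts are short, which bears on how many of their reads could be counted. Their principal transcripts have 3 exons, with a middle exon of 66 or 69 nucleotides. The aligner named in the submitters' processing notes, Bowtie2, does not place reads across splice junctions. The share of 150-base positions that fall within 1 exon was 61.3% for MT1E, 29.7% for MT1F, 35.2% for MT1G, 33.5% for MT1H, 35.3% for MT1X and 34.1% for MT2A, against 85.9% for MTF1, 97.4% for SLC30A1, 94.2% for SLC30A10 and 77.3% for SLC39A10. The metallothionein levels may therefore be understated relative to those of the zinc genes. All libraries were aligned in the same way, and its part in the difference between the groups was not tested.

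The other metallothionein genes were close to the detection limit. Of 15 listed, 14 were in the table and 2 passed the filter. MT1JP, a pseudogene of the cluster, had 6, 6 and 5 counts in WT and 15, 14 and 20 counts in S6K1-/-, all S6K1-/- libraries above all WT libraries. Its log2 fold change of 1.57 (SE 0.353) had an adjusted p of 0.00737 with edgeR's quasi-likelihood test, which missed the threshold. MT1M had 11, 14 and 13 counts in WT and 36, 12 and 13 counts in S6K1-/-. Only the first S6K1-/- library stood out, and the log2 fold change of 0.74 (SE 0.395, adjusted p = 0.259, edgeR's quasi-likelihood test) was 0.06 without it. Neither gene was called by edgeR or by DESeq2's Wald test, and MT1JP alone had an unadjusted p under 0.05. MT1L, which was not tested, had 5, 9 and 7 counts in WT and 22, 8 and 16 in S6K1-/-. MT3, the metallothionein of the brain, MT4, that of squamous epithelium, MT1B and MT1CP had no counts in any library. The remaining 7 had at most 6 counts in a library.

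Among the ZnT exporters, none of the 6 tested beyond the members was called by edgeR's quasi-likelihood test or by DESeq2's Wald test, 2 had an unadjusted p under 0.05, against 26.4% of all genes tested, and their median log2 fold change was 0.01. The exporter with the smallest p was SLC30A3 (ZnT3), which loads zinc into synaptic vesicles of neurons. It had 105, 98 and 103 counts in WT and 57, 69 and 52 counts in S6K1-/-. The groups stood well apart, and the log2 fold change of -0.72 (SE 0.134) had an adjusted p of 0.00176 in edgeR's quasi-likelihood test. Without the filter on low counts it was called, with an adjusted p of 6.21e-05. TMEM163, a zinc efflux protein of low abundance, had 22, 19 and 16 counts in WT and 11, 10 and 13 counts in S6K1-/- (log2 fold change -0.68, SE 0.283, adjusted p = 0.138, edgeR's quasi-likelihood test). SLC30A5, SLC30A6, SLC30A7 and SLC30A9, which serve the secretory pathway and mitochondria, had log2 fold changes from -0.02 to 0.06.

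Among the ZIP importers, 1 of the 10 tested beyond the members was called higher and 1 lower, where 1.42% and 2.54% of all genes tested were. SLC39A4 (ZIP4), which takes up dietary zinc in the intestine and is mutated in acrodermatitis enteropathica, had 124, 116 and 106 counts in WT and 404, 400 and 326 counts in S6K1-/-. Each S6K1-/- library had several times the counts of each WT library. Its level rose from 4.79 ± 0.273 to 16.3 ± 1.17 CPM, a log2 fold change of 1.77 (SE 0.090, adjusted p = 2.65e-09, edgeR's quasi-likelihood test). This exceeded the log2 fold change of every member, and it was called under all 12 other settings at the same threshold, with values from 1.73 to 1.83. A long noncoding RNA on the opposite strand overlaps SLC39A4, and the strand setting of the counting is not given in the sources used here, so reads of the pair cannot be told apart.

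SLC39A8 (ZIP8), an importer of zinc and manganese, had 1095, 1118 and 1109 counts in WT and 808, 883 and 837 counts in S6K1-/-. Its groups did not overlap. Its level fell from 46.1 ± 1.47 to 36.6 ± 2.04 CPM, a log2 fold change of -0.33 (SE 0.054, adjusted p = 5.53e-04, edgeR's quasi-likelihood test). The call was lost with 5 of the 6 libraries left out in turn, all except WT replicate 2, with log2 fold changes from -0.36 to -0.29 and adjusted p up to 0.00594. SLC39A11 had the next smallest p, with 269, 260 and 243 counts in WT and 330, 301 and 271 counts in S6K1-/- and a log2 fold change of 0.28 (SE 0.078, adjusted p = 0.0234, edgeR's quasi-likelihood test).

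SLC39A6, SLC39A9 and SLC39A14, the last an importer of zinc, iron and manganese, had log2 fold changes of 0.16, 0.21 and -0.13, with adjusted p of 0.0280, 0.0347 and 0.0339 in edgeR's quasi-likelihood test. For SLC39A9, S6K1-/- replicate 2 had 2334 counts against 1899 and 1766 in the others, and the log2 fold change was 0.11 (adjusted p = 0.129) without it. Without the filter on low counts SLC39A9 was called, with an adjusted p of 4.73e-04. SLC39A1, SLC39A3 and SLC39A13 had log2 fold changes from -0.10 to 0.17. SLC39A5, with 11, 31 and 15 counts in WT and 23, 17 and 21 in S6K1-/-, had 0.16 (SE 0.332), which was -0.11 without WT replicate 1 and 0.69 without WT replicate 2. The median over the 10 ZIP genes was 0.16, and 6 of them had an unadjusted p under 0.05, against 26.4% of all genes tested. SLC39A7, the zinc transporter of the endoplasmic reticulum, was listed at 0 in every library. This 0 cannot be read as absence of its RNA, because how reads at this gene were assigned was not checked.

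**Figure D2:**
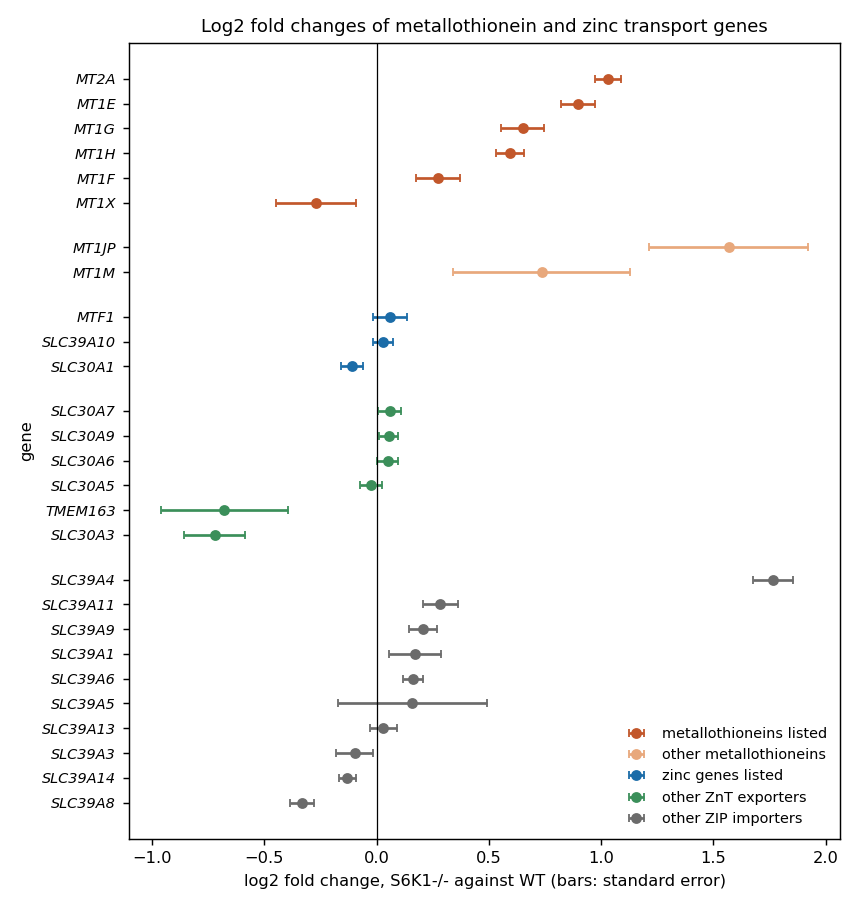
Log2 fold change of S6K1-/- against WT with its standard error for each tested metallothionein and zinc transport gene, in groups of listed metallothioneins, other metallothioneins, listed zinc genes, other ZnT exporters and other ZIP importers. SLC39A4 at 1.77 lies farthest to the right, MT2A, MT1E, MT1G and MT1H lie between 0.59 and 1.03, and most transporters lie near 0.

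Genes on either side of the cluster were described to set the metallothioneins in their region. Of 12 listed neighbours 10 were tested, with a median log2 fold change of 0.06. Of these, 8 had a log2 fold change above 0, 7 had groups that did not overlap in CPM, and 5 had an unadjusted p under 0.05, whereas of all 19521 genes tested 9642 had a value above 0, 30.7% did not overlap and 26.4% had such a p. BBS2, which overlaps MT4 and encodes a protein of the primary cilium complex, had a log2 fold change of 0.06. NUP93, a nucleoporin gene that starts 45.9 kb after the cluster, had 0.03, and OGFOD1, NUDT21, HERPUD1 and ARL2BP lay between 0.02 and 0.17. GNAO1, which encodes a G protein alpha subunit of neurons and ends 208 kb before the cluster, was the 1 gene called, with a log2 fold change of -0.46 (SE 0.053, adjusted p = 2.61e-05, edgeR's quasi-likelihood test). NLRC5, a regulator of MHC class I genes 305 kb after the cluster, had 53, 49 and 50 counts in WT and 22, 29 and 16 counts in S6K1-/-, and its log2 fold change of -1.12 (SE 0.204) had an adjusted p of 0.00155, or 8.92e-06 without the filter on low counts, where it was called. CPNE2, a copine gene, had 0.24 (SE 0.072) with an adjusted p of 0.0380. The 2 genes with the largest differences, NLRC5 and GNAO1, were lower.

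**Figure D3:**
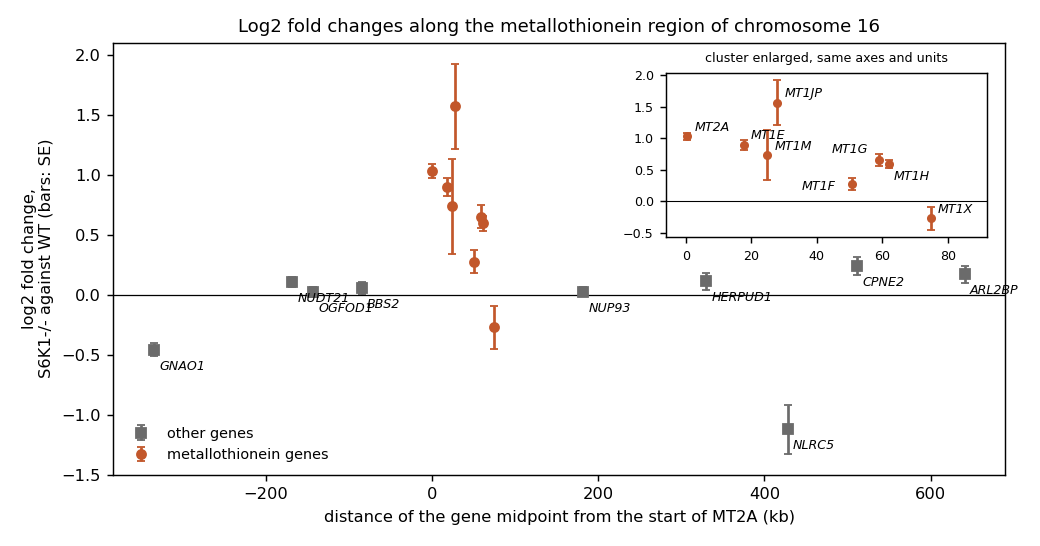
Log2 fold change of S6K1-/- against WT with its standard error along chromosome 16, by distance of the gene midpoint from the start of MT2A in kb, for metallothionein genes (orange circles, enlarged in the inset) and the neighbours named in the text (grey squares). Metallothionein points lie between -0.27 for MT1X and 1.57 for MT1JP, while the neighbours up to NUP93 lie near 0, apart from GNAO1 at -0.46.

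The genes whose levels followed the summed metallothioneins most closely over the 6 libraries were found by Pearson correlation of log2 CPM among 10479 genes of at least 10 CPM. SKP2 had r = 0.996, NCBP2 0.995, GABRA5 0.995, GNAZ 0.994 and MCM7 0.994, and 193 genes had r of at least 0.95. These values are a description, since the 6 points share the difference between the groups. The genes encode a ubiquitin ligase subunit, a cap-binding protein, a GABA receptor subunit, a G protein alpha subunit and a subunit of the replicative helicase, and their log2 fold changes were only 0.10, 0.13, 0.24, 0.22 and 0.05. Among the zinc members r was 0.18 for MTF1, -0.755 for SLC30A1 and 0.268 for SLC39A10.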

How the data were processed

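Total RNA of 6 H7 samples was sequenced from stranded mRNA libraries. The authors deposited whole-number counts per gene without normalization, made, per the submitters' processing notes, with Trim Galore 0.6.5, Bowtie2 2.4.5 and featureCounts on GRCh38. The annotation release and strand setting are not given in the sources used here. A second deposited table holds the authors' own DESeq2 comparison (log2 fold changes, standard errors, statistics and p-values) and was not used.

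Genes kept by filterByExpr (19521 of 61155) were compared with edgeR's quasi-likelihood test (edgeR 4.0.16, R 4.3.3) on the counts after TMM normalization, with genotype as the only factor and all 6 libraries. The Benjamini-Hochberg adjustment covered every gene tested, and the threshold of 0.001 follows the study's methods. CPM used the TMM-scaled totals. The common dispersion was 0.00216. On simulated counts of this comparison, with 19244 genes, 183 of 200 genes changed by 1 on the log2 scale were called, and 0 unchanged genes. Smaller changes were not simulated, so these numbers do not say how often smaller differences are missed. Replicates differed by more than sampling noise (chi-square divided by its degrees of freedom, 2.23 to 4.51).

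The members and gene lists were chosen with earlier results of these data known. Besides the members and RPS6KB1, the rule named all tested metallothionein, ZnT and ZIP genes, with values for those called or, where fewer than 3 were called, the 3 with the smallest p. It added called genes of the other lists and the 5 genes most correlated with the summed metallothioneins. Genes outside it, such as NLRC5 and CPNE2, were named after their values were seen. The values of 1 tested neighbour of the cluster are not reported here. Annotation and exonic lengths came from GENCODE 44, in place of RefSeq models, and promoters from RefSeq. Protein properties came from translated GENCODE coding sequences. Alternatives were DESeq2's size factors, library totals, DESeq2's Wald test (DESeq2 1.42.0), other filters, a block for the replicate number, the omission of single libraries, and a threshold of 0.05.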

Additional observations from a re-analysis of the deposited data

How the results depend on the processing

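The differences of the members moved by less than the replicate spread in all 108 values under the alternatives that refit them, although SLC39A10 changed sign without WT replicate 2. This holds for the fold changes and not for the calls, since MT1G lost its call in some fits with a library left out. Over the transcriptome, 982 genes were called lower and 591 higher without a filter on low counts, and 1622 and 1067 at an adjusted p under 0.05. With a library left out, 313 to 445 were called lower and 175 to 235 higher. Over all lists beyond the members, 3 genes were called lower and 2 higher. These became 6 lower without the filter, and 9 lower and 8 higher at 0.05, and 1 higher with library totals alone. With a library left out they were 1 to 3 lower and 1 to 2 higher. Among the other metallothionein, ZnT and ZIP genes, 1 was called lower and 1 higher, against 2 and 2 without the filter, 3 and 5 at 0.05, and 0 to 1 lower with a library left out. DESeq2's Wald test called 505 genes lower and 339 higher. With the replicate block, 423 genes were called lower and 241 higher, and 1 gene of the lists higher. The numbers share no batch in the labels, and same-numbered libraries did not deviate together (correlations from -0.024 to 0.041), so they do not pair the samples. The causes of these shifts were not tested, beyond the fewer samples or other genes that each setting holds. Depth limits SLC30A10, MT1JP, MT1M, MT1L, TMEM163 and SLC39A5, among others, with under 40 counts in every library.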

Other observations

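Other metal and stress responses were described by lists beside the metallothioneins, which also respond to copper, oxidative stress, heat and glucocorticoids. None of the 12 tested copper handling genes was called by edgeR's quasi-likelihood test or DESeq2's Wald test, and 1 had an unadjusted p under 0.05 (26.4% of all genes tested did), with a median log2 fold change of 0.0018. Among 10 tested genes of iron handling, 5 had an unadjusted p under 0.05, and STEAP3, the endosomal ferrireductase, was called lower. Its level fell from 39.5 ± 2.33 to 30.1 ± 0.837 CPM (n = 3 in each group), a log2 fold change of -0.39 (SE 0.057, adjusted p = 2.27e-04, edgeR's quasi-likelihood test), and the call was lost when any single library but WT replicate 2 was left out (log2 fold change from -0.41 to -0.36, adjusted p up to 0.00279).

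Of 12 tested targets and regulators of NRF2, the factor of the oxidative stress response, 3 had an unadjusted p under 0.05, and NQO1, a quinone reductase, was called higher. Its level rose from 58.9 ± 2.39 to 72.4 ± 3.82 CPM, a log2 fold change of 0.30 (SE 0.049, adjusted p = 6.80e-04, edgeR's quasi-likelihood test), and the call was lost without WT replicate 1 or 3 or S6K1-/- replicate 1 or 3 (0.27 to 0.30, adjusted p up to 0.00633), with library totals alone (adjusted p = 0.00118) and with the replicate block (adjusted p = 0.00195). HMOX1, the heme oxygenase that cadmium and heme induce, had a log2 fold change of -0.19 (SE 0.091) and an adjusted p of 0.196 in the same test. None of the 9 tested heat shock genes and none of the 10 tested glucocorticoid response genes was called by edgeR's quasi-likelihood test or DESeq2's Wald test, and 1 gene of each list had an unadjusted p under 0.05. The heat-inducible genes HSPA1A and HSPA1B were listed at 0, apart from 1 count of HSPA1A in S6K1-/- replicate 3, and were not tested, so the heat shock list does not cover them.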
